A study of Mus musculus with 4 samples.

Results

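The collagen chain genes are the genes whose symbol has the form Col, a type number, a and a chain number. They were taken by that rule from a table of hippocampal transcripts, where they make up 44 of 23466 genes and 51 of 31315 transcript records. A gene with several records is represented by the record with the highest mean over the 4 libraries, which applied to 6 collagen genes. All 44 passed the filter on low values, set at 1 read equivalent or more in at least 2 libraries. A read equivalent is the deposited signal of a transcript divided by the 42 bases that a read contributed. The RNA came from frozen hippocampus of C57BL/6N mice at postnatal day 30. The mutant group (libraries 38 and 39) has the genotype Atp6ap2Camk2aCre/0, titled ko and described as a conditional het, and the wild-type group (libraries 11 and 73) is labelled wt. Camk2a-Cre acts in forebrain excitatory neurons, so the tissue also holds many cells without Cre, among them the fibroblasts, vessel cells and epithelium that make much of the collagen. The study asked what follows in the brain from loss of Atp6ap2, an accessory subunit of the vacuolar proton pump.

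Depth was 10023033 to 18339838 unscaled read equivalents per library, lowest in wild-type 73. The scaled signal of Atp6ap2 was 2312 and 2637 read equivalents in wild-types 11 and 73, against 2551 and 2522 in mutants 38 and 39, so the whole-transcript level does not separate the labels. The neuron, CA1 and dentate granule markers of hippocampus were read in every library. All 17 choroid plexus markers were 2.70-fold to 24.3-fold higher, between the nearest libraries, in wild-type 11 and mutant 38 than in wild-type 73 and mutant 39. Ttr, which encodes the thyroxine carrier of choroid plexus epithelium, had 41492 and 70079 in the first pair, called choroid-rich here, and 2562 and 1749 in the second, called choroid-poor. Each pair holds a library of each genotype. In bulk tissue fewer cells of a type and less RNA per cell cannot be told apart.

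Collagens are secreted or membrane-bound proteins built of chains of the same or of related kinds that wind around each other, a fold that needs glycine at regular steps along the chain. Fibrillar collagens form the tensile fibres of meninges and vessel walls, collagen IV forms the sheet of basement membranes, and collagen VI forms beaded filaments near cell surfaces. Other classes sit on fibrils, span the cell membrane or line specialised epithelia. Brain tissue has little fibrous matrix, and its collagen is concentrated in vessels, meninges and choroid plexus, while a few chains are made by neurons.

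Levels of different genes were compared per kilobase of transcript, for the 43 genes with a transcript length (Col12a1 had none). Mean levels ran from 1.38 scaled read equivalents per kb for Col6a6 to 686 for Col25a1, with a median of 22.6. Col25a1, a membrane-spanning collagen of neurons, had 672 and 649 per kb in wild-types 11 and 73, against 844 and 577 in mutants 38 and 39. It stood above every other collagen in all 4 libraries and made up 26.6% to 31.4% of the summed collagen level per kb. Col19a1, a fibril-associated chain found in interneurons, followed with 182 to 223 per kb, Col4a2 with 164 to 229 and Col4a1 with 167 to 236. These 3 overlapped and have no order among themselves. Col9a3, a chain of fibril-associated collagen IX, came next by its mean but ranged from 65.2 to 329 per kb. At the lower end, Col28a1 had as few as 4 unscaled read equivalents in a library, and 15 of the 44 genes had at least 100 in every library.

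**Figure D1:**
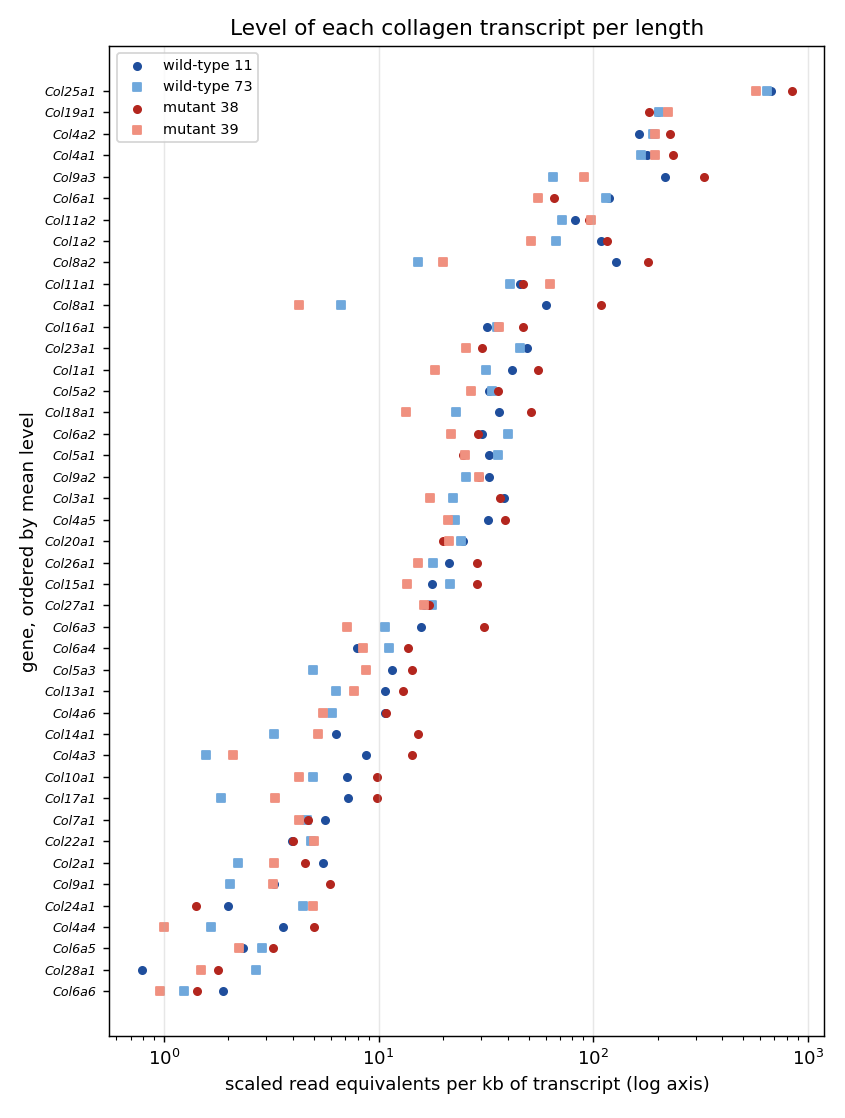
Scaled read equivalents per kb of transcript (log axis) for 43 collagen genes, ordered by their mean, with a point for each of the 4 libraries. Col25a1 stands apart at 577 to 844 per kb, and the points of Col8a1, Col8a2 and Col9a3 are spread widely, with the choroid-rich libraries (circles) to the right.

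Between the genotypes, no collagen gene passed at a limma adjusted p below 0.05 (0 of 44), against 1 of 18127 genes tested, or 0.00552%. At an unadjusted p below 0.05 there were 5 collagen genes (11.4%), against 3.94% of all genes. Of these, 2 were higher in the mutants (Col11a2 and Col4a1, background 2.18%) and 3 were lower (Col6a1, Col23a1 and Col5a1, background 1.75%). Mutants and wild-types did not overlap in 10 of the 44 (22.7%), which is under the 33.3% of all genes. The 5 with both mutants higher (background 16.8%) were Col11a1, Col11a2, Col16a1, Col4a1 and Col4a2, and the 5 with both lower (background 16.5%) were Col6a1, Col6a2, Col23a1, Col5a1 and Col20a1. The median log2 fold change of the collagen genes was 0.07, beside 0.01 for all genes tested, with 27 collagen genes above 0 and 17 below. Their median standard error was 0.36, against 0.18 for all genes. The limma fit draws this error toward a trend with signal level, and the genes were not matched in level. With 2 against 2 libraries the smallest two-sided exact permutation p is 0.333.

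**Figure D2:**
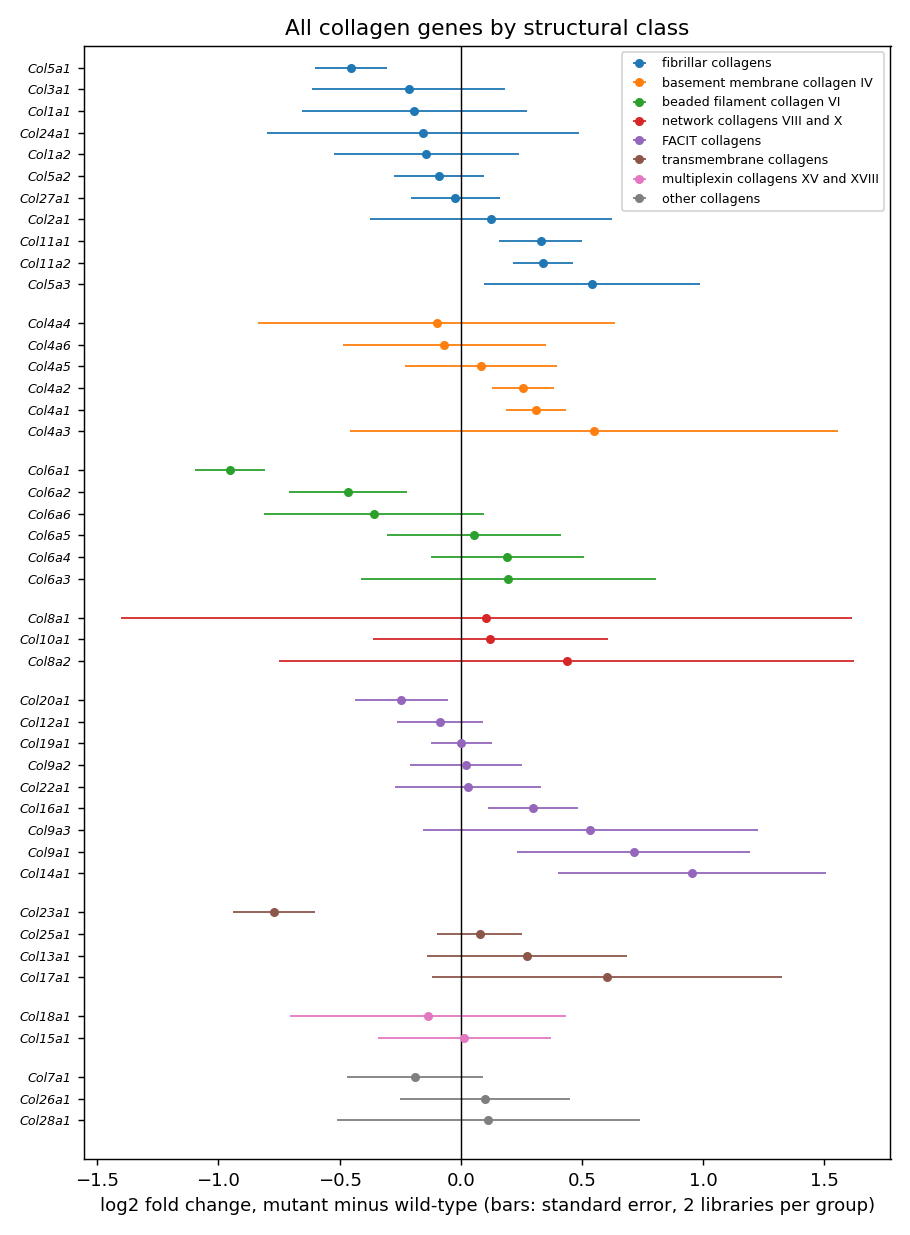
Log2 fold change (mutant minus wild-type) of the 44 collagen genes, with bars for the standard error (2 libraries per group) and colours for structural class. Col6a1 at -0.95 and Col23a1 at -0.77 lie far to the left with short bars, while Col8a1 and Col8a2 lie near the middle with the longest bars.

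Col6a1, the alpha 1 chain of collagen VI, had the smallest p of the collagen genes. In scaled read equivalents it stood at 488 and 468 in wild-types 11 and 73, against 269 and 226 in mutants 38 and 39. Both mutants lay far below both wild-types, and the libraries of each genotype were close together. This gave -0.95 ± 0.14 on the log2 scale (SE, n = 2 per group, with a 95% interval from -1.29 to -0.61), with a limma p of 0.000309 that did not pass adjustment over all genes (adjusted p = 0.255). In the authors' deposited table the p of Col6a1 was 6.83e-06, which passed a Benjamini-Hochberg adjustment made here over all records (0.00509). It was the only collagen gene to pass there, against a background of 0.248%. Before adjustment, 3 collagen genes (6.82%) had a p below 0.05 in the authors' deposited table, Col6a1, Col23a1 and Col4a1, against 2.15% of all genes. The difference was -1.05 within the choroid-poor pair and -0.86 within the choroid-rich pair, 1 library against 1 in each. With the choroid plexus marker level as a covariate, Col6a1 had a limma log2 fold change of -0.96 and passed (adjusted p = 0.00288), the only collagen gene of 44 to do so, against 0.441% of all genes. That fit leaves a single residual degree of freedom per gene.

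The other collagen VI chains did not share this separation to the same degree. Col6a2, whose chain joins alpha 1 and alpha 3 in the classical collagen VI molecule and whose gene is the next protein-coding neighbour of Col6a1, had 120 and 158 in wild-types 11 and 73, against 115 and 86.1 in mutants 38 and 39. Both mutants were lower, mutant 38 only slightly so (log2 fold change -0.47 ± 0.24, SE; limma adjusted p = 0.989). Col6a3, the large alpha 3 chain, had 159 and 108 in wild-type and 313 and 72.3 in mutant, with the highest and the lowest value both in mutants. It was -0.57 within the choroid-poor pair and 0.97 within the choroid-rich pair on the log2 scale. Per kb, the level of Col6a1 was 3.93 and 2.85 times that of Col6a2 in wild-types 11 and 73 and 2.26 and 2.53 times in mutants 38 and 39. Col6a3 per kb was 0.0937 to 0.133 of Col6a1 in wild-types 11 and 73 and in mutant 39, and 0.472 in mutant 38. The chains that can stand in for alpha 3, Col6a4, Col6a5 and Col6a6, are encoded side by side and had log2 fold changes of 0.19, 0.05 and -0.36, each with overlapping groups. Col6a4 had 58.6 to 101 scaled read equivalents, Col6a5 20.8 to 30.1 and Col6a6 8.43 to 16.6 over the 4 libraries.

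Col23a1 and Col5a1 were the other collagen genes with both mutants lower and an unadjusted p below 0.05. Col23a1, which encodes a membrane-spanning collagen, had 280 and 259 in wild-types 11 and 73, against 172 and 144 in mutants 38 and 39. The gap between the genotypes was again wider than the spread within either (log2 fold change -0.77 ± 0.17, SE, n = 2 per group; with a 95% interval from -1.17 to -0.37; limma adjusted p = 0.803). Its p in the authors' deposited table was 0.00284. Col5a1, a chain of the fibrillar collagen V that sets fibril diameter, had 274 and 303 in wild-type and 208 and 213 in mutant (-0.45 ± 0.15, SE; limma adjusted p = 0.989). Its exons overlap opposite-strand exons of 2810430I11Rik and Gm13372 in the GENCODE annotation, and whether the deposited signal keeps strands apart is not given in the sources used here. Its partner chain Col5a2 had 180 to 239 scaled read equivalents with overlapping groups. Col20a1, a fibril-associated chain, had 124 and 122 in wild-type and 99.99 and 107 in mutant, an ordering by genotype with a small gap.

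Of 12 meningeal and perivascular fibroblast markers, only Dcn and Ptgds had both mutants lower, as Col6a1 did. In 9 of the 12, both choroid-rich libraries were higher than both choroid-poor ones (background 20.6%). Dcn, a small leucine-rich proteoglycan of collagen fibrils, had 801 and 1060 in wild-types 11 and 73, against 473 and 259 in mutants 38 and 39. Ptgds, a prostaglandin synthase of meninges, had 11041 and 10441 in wild-type and 7593 and 7851 in mutant. Those were the 2 of 12 meningeal and perivascular fibroblast markers with both mutants lower, and 0 of 12 had both mutants higher. Over all genes tested, both mutants were lower in 16.5% and higher in 16.8%, the shares against which the counts of this and the next lists are to be read. The summed level of the 12 markers was 14844 to 17538 in wild-type and 11174 to 14615 in mutant, and without Ptgds it was 4404 to 6496 and 3323 to 7022, with no marker at 0. Of the CA1 pyramidal markers, 2 of 8 had both mutants lower (Dcn again, and Fibcd1), and their summed level was 10731 to 11752 in wild-type and 8205 to 11851 in mutant. Dentate granule markers had 2 of 8 with both mutants lower, and summed to 7456 to 7875 in wild-type and 6596 to 6678 in mutant. Thalamus markers had 2 of 8 with both mutants higher (Slc17a6 and Rora). They summed to 2428 to 2535 in wild-type and 2483 to 5224 in mutant, with Gbx2 at 0 in wild-type 73. Their median log2 fold change was 0.73, with 0.09 within the choroid-poor pair and 1.22 within the choroid-rich pair. Slc17a6 had 380 and 408 in wild-types 11 and 73, against 954 and 783 in mutants 38 and 39. Oligodendrocyte precursor markers had 1 of 6 higher and 1 lower in both mutants, and summed to 4232 to 4304 and 4171 to 4530. The part of any of these cells in the Col6a1 values was not tested. The fibrillar chains most typical of fibroblasts did not separate the genotypes. Col1a1, the alpha 1 chain of collagen I, had 247 and 188 in wild-types 11 and 73, against 328 and 108 in mutants 38 and 39 (log2 fold change -0.19 ± 0.46, SE; limma adjusted p = 0.989). Col1a2, its alpha 2 partner, had 581 and 359 in wild-type and 622 and 276 in mutant (-0.14 ± 0.38). Col3a1, the collagen III chain that mixes with collagen I in soft tissue, had 215 and 124 in wild-type and 206 and 96.2 in mutant (-0.22 ± 0.40, SE). In all 3 the high libraries were wild-type 11 and mutant 38, and the mutants held the lowest value. The ratio of Col1a1 to Col1a2 per kb stayed between 0.354 and 0.475.

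**Figure D3:**
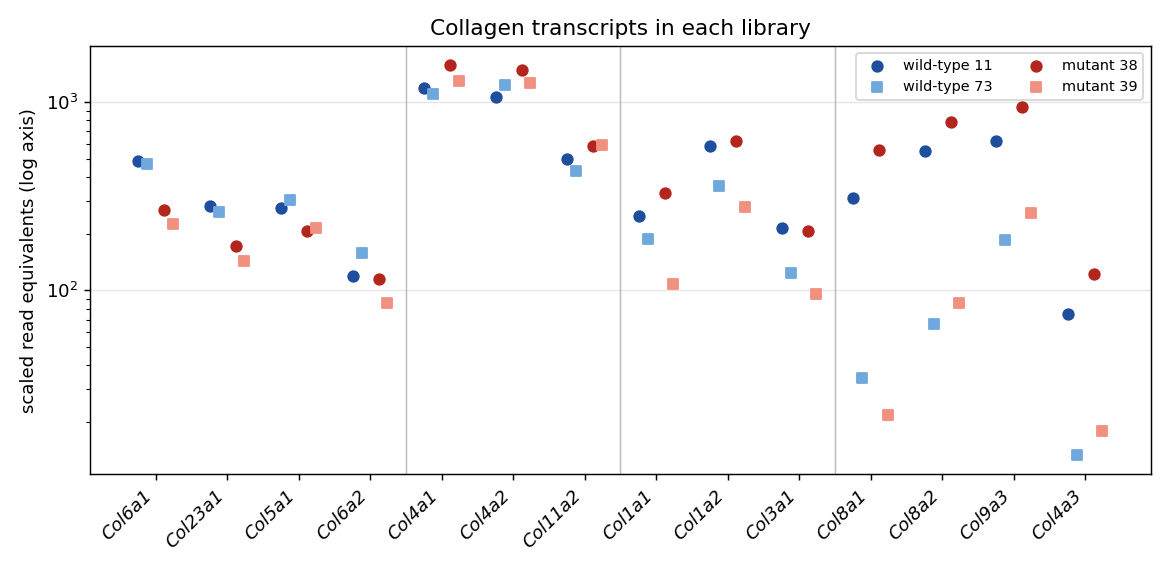
Scaled read equivalents (log axis) of 14 collagen genes in each library, with wild-types in blue, mutants in red, choroid-rich libraries as circles and choroid-poor ones as squares. Red points lie below blue ones for Col6a1 (226 and 269 against 468 and 488) and Col23a1, and circles lie above squares for Col8a1, Col8a2, Col9a3 and Col4a3.

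On the higher side stood the major basement membrane chains. Col4a1 and Col4a2 encode the chains that together make the collagen IV of nearly all vessel walls, and their genes lie head to head. Col4a1 had 1184 and 1102 in wild-types 11 and 73, against 1564 and 1286 in mutants 38 and 39, with both mutants higher (log2 fold change 0.31 ± 0.12, SE, n = 2 per group; with a 95% interval from 0.02 to 0.61; limma adjusted p = 0.989). Its p in the authors' deposited table was 0.0461. Col4a2 had 1057 and 1225 in wild-type and 1475 and 1256 in mutant, a narrower separation (0.26 ± 0.13, SE; limma adjusted p = 0.989). The chains stayed close to each other, with a ratio of Col4a1 to Col4a2 per kb of 0.877 to 1.09. The RefSeq start sites of the pair overlap, so that the following 22 bases, shown because they begin both transcripts, belong to the first exon of each on opposite strands (GRCm38.p6, chr8:11312805-11312826, plus strand).
Col4a1 and Col4a2 shared start: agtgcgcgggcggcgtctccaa
Endothelial markers had 3 of 10 members with both mutants higher and 2 with both lower, and summed to 3487 to 3588 in wild-type and 3557 to 3940 in mutant. Pericyte and smooth muscle markers had 3 of 11 and 1 of 11, and summed to 3406 to 3824 and 3344 to 4153. The background for these counts is 16.8% with both mutants higher and 16.5% with both lower. No marker of either list was at 0, and their part in the collagen IV values was not tested.

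Col11a2, a fibrillar chain of cartilage that is also read in brain, had 496 and 431 in wild-type and 581 and 589 in mutant (log2 fold change 0.34 ± 0.12, SE; limma adjusted p = 0.989). Both mutants were higher and nearly equal. Col11a1, its partner in collagen XI, had 350 and 315 in wild-type and 361 and 483 in mutant, where mutant 38 was barely above the wild-types. Col16a1, a fibril-associated chain, had 167 and 185 in wild-type and 245 and 191 in mutant, here with mutant 39 barely above.

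The choroid plexus pairs, rather than the genotypes, ordered many collagen genes. Both choroid-rich libraries were higher than both choroid-poor ones in 25 of 44 collagen genes (56.8%), against 20.6% of all genes, and lower in 3 (Col19a1, Col22a1 and Col24a1), against 20%. No minimum gap was set, so the counts take in nearly equal libraries, such as those of Col9a2 and Col9a1 (1.00-fold and 1.01-fold). The order of choroid-rich over choroid-poor was not particular to collagens. It held in 10 of 12 basement membrane partners, 9 of 12 meningeal and perivascular fibroblast markers and 8 of 11 collagen receptor genes, with 0 reversed in each. Matrix partners had 6 of 12 (1 reversed), folding genes 6 of 19 (1 reversed) and processing genes 4 of 14 (3 reversed). The gap between the nearest libraries was 2-fold or more in 6 collagen genes (13.6%), against 1.73% of all genes. These 6 were Col8a1, Col8a2, Col4a3, Col9a3, Col17a1 and Col4a4. In their lowest library, Col4a3, Col17a1 and Col4a4 had only 8.57, 6.5 and 10.7 unscaled read equivalents. The collagen median of the log2 difference between mutant and wild-type was -0.16 within the choroid-poor pair and 0.29 within the choroid-rich pair, while that of all genes was -0.0043 and 0.0070. The summed collagen signal was 9373 to 9790 scaled read equivalents in the choroid-poor and 11764 to 14180 in the choroid-rich libraries. These pairs were formed from the marker values and not from labels, so the counts are a description without a test.

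**Figure D4:**
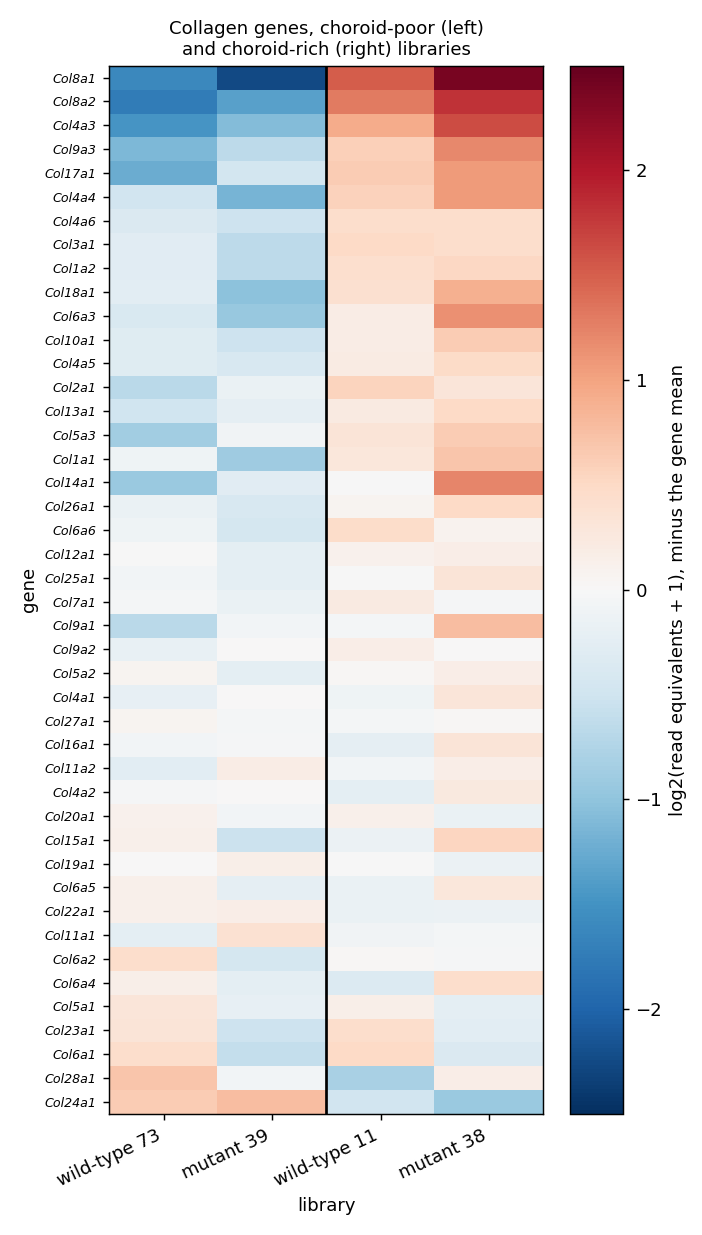
Log2(read equivalents + 1) minus the mean of the gene, for 44 collagen genes (rows) in the 4 libraries (columns), with the choroid-poor libraries left of the black line and rows ordered by the fold between the nearest libraries of the pairs. The top rows, from Col8a1 (8.99-fold) to Col4a4 (2.16-fold), are blue on the left and red on the right in both genotypes, while Col6a1 and Col23a1 near the bottom alternate in colour by genotype.

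Col8a1 and Col8a2 encode the chains of collagen VIII, a short-chain collagen that forms hexagonal sheets under some endothelia and epithelia. Col8a1 had 309 in wild-type 11 and 558 in mutant 38, against 34.3 in wild-type 73 and 21.7 in mutant 39. Col8a2 had 552 and 779 against 66.1 and 86.1 in the same order. The nearest libraries of the pairs were 8.99-fold apart for Col8a1 and 6.41-fold for Col8a2, the widest gaps among the collagen genes. Between the genotypes the groups overlapped fully, at 0.11 ± 1.51 for Col8a1 and 0.44 ± 1.19 for Col8a2 (log2 fold change, SE, n = 2 per group). Their intervals, -3.47 to 3.68 and -2.37 to 3.25, hold large changes in either direction. Col10a1, the related chain of growth cartilage, had 13.3 to 30.8.

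The 250 bases before the start of Col8a1 and Col8a2 are shown because these genes were high and low together across the libraries, and those of Col6a1 because that gene was ordered by genotype instead. They are from RefSeq for GRCm38.p6, written 5′ to 3′ along the gene, at chr16:57754738-57754987 (minus strand), chr4:126286544-126286793 (plus strand) and chr10:76726045-76726294 (minus strand). Capitals mark the letters GGGCGG, known as a GC box, on either strand.
Col8a1: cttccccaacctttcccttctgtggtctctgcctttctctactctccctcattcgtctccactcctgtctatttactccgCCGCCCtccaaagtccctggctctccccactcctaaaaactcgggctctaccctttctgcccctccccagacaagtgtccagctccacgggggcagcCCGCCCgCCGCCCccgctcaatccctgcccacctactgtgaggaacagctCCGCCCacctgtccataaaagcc
Col8a2: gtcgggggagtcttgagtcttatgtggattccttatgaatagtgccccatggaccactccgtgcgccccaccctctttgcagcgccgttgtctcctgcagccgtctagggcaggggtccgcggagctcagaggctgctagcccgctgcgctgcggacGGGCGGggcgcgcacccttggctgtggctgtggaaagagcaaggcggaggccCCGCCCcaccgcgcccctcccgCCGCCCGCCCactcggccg
Col6a1: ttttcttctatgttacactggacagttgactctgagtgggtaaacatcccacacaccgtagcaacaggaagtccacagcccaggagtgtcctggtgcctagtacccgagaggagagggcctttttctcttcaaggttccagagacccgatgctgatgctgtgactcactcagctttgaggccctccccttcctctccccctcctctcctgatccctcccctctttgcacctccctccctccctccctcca
GGGCGG occurred in the windows of Col8a1 and Col8a2, in 22 of 38 windows of the 35 collagen genes with an entry, and in 32.7% of all 32851 windows of that length. The median GC content was 59.0% in the collagen windows and 52.4% in all. Other letter strings were searched on both strands of the same windows. CCAAT was in 13 of 38 collagen windows and in 33.8% of all, and TATAAA in 5 of 38 and in 12.4%. TAATCC, the core letters bound by Otx factors, was in 0 of 38 and in 6.25% of all. None of these 3 strings was in the windows printed, and that of Col6a1 holds no GGGCGG either. The strings do not overlap each other in these windows, apart from neighbouring copies of GGGCGG. A match or its absence describes the letters of these windows only.

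Col9a3, with 617 and 937 in the choroid-rich wild-type 11 and mutant 38 and 186 and 257 in the choroid-poor wild-type 73 and mutant 39, was 2.40-fold apart between the nearest libraries. A part of its exons (234 bases in GENCODE) overlaps Tcfl5 on the opposite strand. The other collagen IX chains had almost no gap between the nearest libraries of the pairs, at 1.00-fold for Col9a2 and 1.01-fold for Col9a1. Col9a2 had 95.7 and 85.8 in the choroid-rich and 74.7 and 85.7 in the choroid-poor libraries, and Col9a1 had 12.5 and 22.9 against 7.81 and 12.4. The ratio of Col9a3 to Col9a2 per kb was 6.63 and 11.2 in the choroid-rich and 2.55 and 3.08 in the choroid-poor libraries. The minor collagen IV chains also ordered by these pairs. Col4a3, a chain of kidney-type basement membrane, had 74.7 and 122 against 13.4 and 17.9, a gap of 4.17-fold, and 563 bases of its exons overlap C430014B12Rik on the opposite strand. Col4a4, its head-to-head neighbour, had 36.1 and 50.6 against 16.7 and 10.1. Col4a5 had 211 and 255 against 149 and 138, and Col4a6, which lies head to head with it, had 71.4 and 71.8 against 40.6 and 36.7. Col17a1, a membrane-spanning collagen of epithelial attachment, had 39.4 and 53.8 against 10.2 and 18.0. The log2 fold changes between genotypes of these chains ran from -0.10 for Col4a4 to 0.71 for Col9a1, with limma adjusted p-values of 0.989 or more. Col4a1 and Col4a2, by contrast, showed no separation of the pairs, with the choroid-rich wild-type 11 among the lower libraries.

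The remaining members add smaller differences. Col18a1, the source of endostatin, had 175 and 245 in the choroid-rich and 110 and 64.6 in the choroid-poor libraries, and its relative Col15a1 had 70.0 to 148 with no such order. Col14a1, a fibril-associated chain, had the largest positive log2 fold change of the collagen genes (0.95 ± 0.55, SE; limma adjusted p = 0.989). It had 35.9 and 18.5 in wild-types 11 and 73, against 86.4 and 29.8 in mutants 38 and 39, so that mutant 39 lay between the wild-types. Col5a3, of collagen V, had 71.0 and 30.4 in wild-type and 87.6 and 53.2 in mutant, ordered by choroid pair and, within each pair, with the mutant higher. Col24a1, a fibrillar chain, had the reverse order of pairs, with 31.8 and 35.2 in the choroid-poor and 14.2 and 10.1 in the choroid-rich libraries. The neuronal chains Col25a1 and Col19a1 differed little by genotype, at 0.08 ± 0.17 and 0.0029 ± 0.13 (log2 fold change, SE). Col27a1 (124 to 135) and Col22a1 (34.7 to 43.9) had log2 fold changes of -0.02 and 0.03. Col2a1, Col7a1, Col12a1, Col13a1, Col26a1 and Col28a1 had log2 fold changes between -0.19 and 0.27 with overlapping groups.

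Genes that build, cut and bind collagen were read from lists, and none of their members passed at a limma adjusted p below 0.05. Of 19 measured folding and modification genes, 0 had an unadjusted p below 0.05 (background 3.94%, and 1.75% for genes lower in the mutants), and the median log2 fold change was -0.05. P4ha1, a catalytic subunit of collagen prolyl hydroxylase, had 1163 and 1136 in wild-type and 1005 and 950 in mutant (-0.23 ± 0.10, SE). Of 14 processing and crosslinking genes, 1 was lower at that p, Adamts14, a procollagen N-proteinase with 25.4 and 28.6 in wild-type and 16.6 and 7.22 in mutant. Of 9 breakdown genes tested, 1 was lower, the metalloproteinase inhibitor gene Timp2, with 3759 and 4316 against 3514 and 2636. The median of that list was -0.05. Timp3, another inhibitor gene on it, had a log2 fold change of 0.60 ± 0.26 (SE) with overlapping groups. Of 11 collagen receptor genes and 12 basement membrane partners, 0 passed at that p, with medians of 0.02 and 0.03. Itgb1, the common chain of collagen-binding integrins, had 1275 and 1181 in wild-type and 1593 and 1243 in mutant.

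Small leucine-rich and other matrix partners had the lowest median of these lists, -0.25, and 4 of 12 were lower at an unadjusted p below 0.05 (background 1.75%). They were Dcn (-1.39 ± 0.28), the fibril-binding proteoglycan gene Fmod (-0.59 ± 0.20) and the fibulin genes Fbln1 (-0.47 ± 0.19) and Fbln2 (-0.56 ± 0.23; log2 fold change, SE, n = 2 per group). Fmod had 245 and 195 in wild-types 11 and 73, against 163 and 129 in mutants 38 and 39, with no overlap. The median of this list was -0.58 within the choroid-poor pair and 0.09 within the choroid-rich pair. Regulators of the TGF-beta and connective tissue growth factor kind had a median of 0.15, and 2 of 12 were higher at that p (background 2.18%). These were Cyr61 (2.47 ± 0.26), with 166 and 163 in wild-type and 1242 and 679 in mutant, and Ctgf (0.87 ± 0.27), with 168 and 275 against 475 and 326 (log2 fold change, SE). Both encode secreted matrix proteins of a shared family. The lists were chosen with earlier results of these data known, so the counts of list members are a description without a test.

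**Figure D5:**
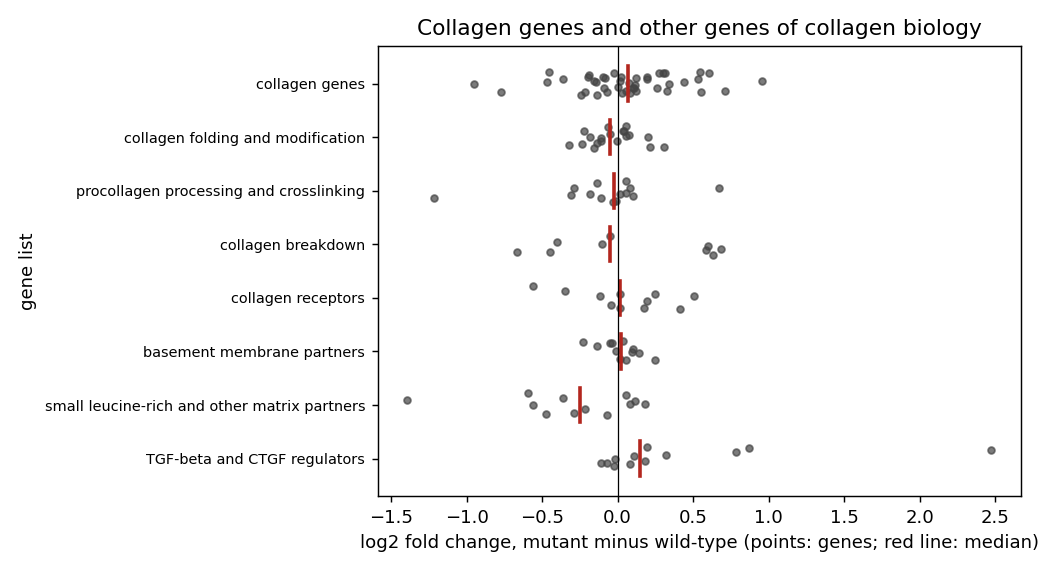
Log2 fold change (mutant minus wild-type) of each collagen gene and of each member of 7 lists of other genes of collagen biology, with a red line at the median. The collagen genes spread to both sides of 0 around a median of 0.07, and the leucine-rich and matrix partner list lies lowest at -0.25, with Dcn at -1.39.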

How the data were processed

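Ribosome-depleted, strand-marked RNA libraries of hippocampus were read from a single end, 4 to a lane, per the labels' protocols. GSNAP, DESeq2 and the build mm9 are named in the submitters' processing notes, with no versions or roles; what counted the reads, whether by strand, and on which annotation is not given in the sources used here. The authors deposited signal: the aligned bases of each transcript record, divided by a factor that scales the library. Tested on the values, 100% were whole multiples of a step (within 0.05 of a step), with low values at 42, 84 and 126 steps. The authors deposited a p-value per record in a column headed Pval DEseq, so it comes from another method than the limma p. The column does not say whether it was adjusted.

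Values were divided by 42, a pseudocount of 1 was added, and log2 values were tested in R 4.3.3 with limma 3.58.1 (variance trend, two-sided, Benjamini-Hochberg over 18127 genes, threshold 0.05), with genotype as the only term. Fold changes on that scale understate those of low genes. All pairs of libraries differed beyond sampling noise (chi-square per degree of freedom 9.16 to 20.3). The lowest values were between genotypes, wild-type 11 with mutant 38 (9.16) and wild-type 73 with mutant 39 (11.6). Within a genotype the value was 15.2 for the wild-types and 19.1 for the mutants. The labels do not say how samples relate to animals, so a p-value measures only how these samples vary, which may be technical. Transcript lengths are those of GENCODE M21 transcripts matched by RefSeq accession, and neighbouring genes come from RefSeq GRCm38.p6; no coordinates were carried between builds. Tables and plots were made in Python 3.11.15 with matplotlib 3.10.9.

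The collagen genes and the gene lists were chosen with earlier results of these data known. Named with all values were Col6a1, Col1a1, Col8a1, collagen genes with an unadjusted p below 0.05, chains of collagens I, III, IV, VI, VIII and IX, the 5 highest per length (transcript length in place of coding length), the 5 with the widest gap between choroid plexus pairs, and up to 4 genes of each list by smallest p, not all of which are printed; other collagen genes were named after their values were seen. The planned likeness of other genes to Col6a1 was not computed, since a correlation over 4 libraries is not interpretable. Alternatives covered pseudocount, filter, scaling, unit, records, variance prior, a choroid plexus covariate and leaving out each library.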

Additional observations from a re-analysis of the deposited data

How the results depend on the processing

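No paired analysis was possible because the genotypes share no replicate numbers. Leaving out a library leaves a lone library in its group, which is assumed to vary like the other group. Over 14 alternative fits, Col6a1 kept its direction, with log2 fold changes of -1.08 to -0.83 and limma adjusted p-values of 0.00288 (choroid plexus covariate) to 0.653. It passed under that covariate alone, at -0.96. Both mutants lay below both wild-types for Col6a1, so its direction could not reverse when a library was left out. Of 26 named collagen genes, 9 kept their sign in all 14 fits: Col6a1, Col6a2, Col6a6, Col23a1, Col5a1, Col11a2, Col4a1, Col4a2 and Col9a1. Among these, only Col6a6 and Col9a1 had overlapping groups. For the others, leaving out a library could not reverse the sign, so the kept sign restates their separation. Leaving out a library gave 0.17 to 0.45 for Col4a1, 0.14 to 0.37 for Col4a2 and 0.30 to 1.13 for Col9a1, each lowest without mutant 38, and 0.24 (without wild-type 73) to 0.44 for Col11a2. It gave -0.67 to -0.26 (without mutant 39) for Col6a2, -0.64 to -0.078 (without wild-type 11) for Col6a6, -0.53 to -0.38 for Col5a1 and -0.90 to -0.64 for Col23a1.

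The number of collagen genes with an unadjusted p below 0.05 was 5, and 9 with the covariate, 3 by the authors' deposited p, and 3 (without wild-type 73) to 12 (without mutant 39) leaving out a library; it was 8 without mutant 38 and 10 without wild-type 11. Genes with an adjusted p below 0.05 numbered 1, and 62 with no filter, 12 with a robust prior, 80 with the covariate, and 1 (without wild-type 73) to 37 (without wild-type 11) leaving out a library; it was 8 without mutant 38 and 7 without mutant 39. The collagen median of 0.07 became -0.28 without mutant 38, -0.14 without wild-type 73, 0.20 without wild-type 11 and 0.39 without mutant 39.

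Leaving out a library in turn gave log2 fold changes of -2.21 to 2.42 for Col8a1, -1.14 to 2.02 for Col8a2, -0.80 to 1.90 for Col4a3, -1.21 to 1.01 for Col4a4, -0.36 to 0.52 for Col4a5, -0.54 to 0.41 for Col4a6, -0.85 to 1.25 for Col6a3, -0.15 to 0.54 for Col6a4, -0.20 to 0.31 for Col6a5, -0.16 to 0.20 for Col9a2, -0.40 to 1.47 for Col9a3, -0.99 to 0.60 for Col1a1, -0.73 to 0.44 for Col1a2, -0.76 to 0.33 for Col3a1, -0.32 to 1.53 for Col17a1, -0.20 to 0.35 for Col25a1 and -0.14 to 0.15 for Col19a1. Col8a1 was -0.079 with the covariate and Col19a1 was -0.013 at equal library totals. The cause of these changes was not tested. Rescaling moved the median of all genes to 0.0064 (median ratios) or -0.0088 (equal totals).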
